A study of Mus musculus with 2 samples.

Results

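The 9 genes Spi1, Cebpa, Cebpb, Cebpd, Maf, Runx1, Mitf, Tfeb and Tfec encode transcription factors tied to the macrophage lineage, and were taken by symbol from 55536 annotated genes in the deposited tables. They were measured in RNA from the nucleoplasm of macrophages that had been grown in culture from mouse bone marrow. The cells came from strain C57BL/6J and had been given 100 ng/ml lipid A, the part of bacterial lipopolysaccharide that the receptor TLR4 recognises, for 50 minutes. Ribosomal RNA was depleted before sequencing. The 1 group held 2 libraries, labelled as biological replicates and called library 1 and library 2 after their replicate number. Each came from its own biosample under 1 donor record, with age and sex not recorded, and nothing says whether separate animals were used. Of the labels, the description names the nucleoplasm, and others name the nucleus. Library 1 was made from 500 ng of RNA and library 2 from 1 µg. Untreated cells were not analysed here, so the levels below describe treated cells without a baseline, and with 1 group no test between conditions exists.

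PU.1, the product of Spi1, is an ETS-family factor that opens and marks myeloid enhancers, and it acts on many of them together with C/EBP factors and RUNX1. The C/EBP and Maf proteins bind DNA through basic leucine zippers, whereas MITF, TFEB and TFEC belong, with TFE3, to the basic helix-loop-helix leucine zipper group called the MiT family, which binds E-box sequences in genes of lysosomes, autophagy and, in melanocytes and osteoclasts, of specialised cell products. Several of these genes have alternative first exons, and nuclear RNA holds transcripts from which introns have not been removed, so the isoforms were described together with the levels.

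Macrophage markers were present, and most markers of other cells were below 1 TPM in both libraries. Each of the 8 macrophage markers reached 1 TPM (transcripts per 1000000) in both libraries, with means from 17.9 TPM for Fcgr1 to 1484 TPM for Lyz2. Of 34 markers of T cells, B cells, neutrophils, erythroid cells, mast cells and basophils, dendritic cells, osteoclasts, stroma and endothelium, 2 reached 1 TPM in both libraries. These were S100a8, at 1.67 and 1.27 TPM, and the osteoclast gene Acp5, at 5.11 and 9.58 TPM. Acp5 was above Tfeb in both libraries and above Cebpa in library 2. Those 34 markers summed to 14.9 TPM in library 1 and 17.5 TPM in library 2, and 8 of them had 0 expected counts in both, among them Cd3e, Cd3g, Ly6g, Cpa3, Mcpt8 and Fcer1a. In the other quantification, a second deposited estimate for the same libraries, the 34 summed to 38.6 and 7.26 TPM. There the T cell gene Cd3d was at 10.4 TPM in library 1 and 1.05 TPM in library 2 and the endothelial gene Pecam1 at 11.7 and 0.587 TPM, above the macrophage marker Fcgr1 at 9.19 TPM in library 1. The part of other cells in the levels below was not tested. In a bulk library, fewer cells of a type and less RNA per cell cannot be told apart. The gene rows held 10342882 expected counts in library 1 and 20495545 in library 2, so that a count of 0 allows up to 0.290 CPM (counts per 1000000) in library 1 and 0.146 CPM in library 2, for counting error only. The median log2 TPM ratio of library 2 over library 1 was -0.69 over 11532 genes with a mean of at least 1 TPM, and each SD over the libraries contains that overall difference. In the other quantification the median log2 TPM ratio was -2.26.

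The sequences that the isoform results turn on are the places where an isoform runs on past an exon end into the intron. They are shown for 4 isoforms, each first as spliced in the complete coding isoform and then as read through. The last 15 exon bases are in lower case and the 15 bases that follow in the transcript are in capitals. All were read from the M21 transcript sequences of the mm10 build.
Runx1-201 spliced after exon 4: ggcggagcggtagagGCAAGAGCTTCACTC
Runx1-206 read through: ggcggagcggtagagGTGCGTATCTGTCAC
Mitf-202 spliced after exon 2: atggaagtccttaagGTGCAGACCCACCTG
Mitf-206 read through: atggaagtccttaagGTATGTGAGTGTTGC
Tfec-201 spliced after exon 4: acaaccacaacctcaTTGAAAGAAGAAGAA
Tfec-203 read through: acaaccacaacctcaGTGAGTATGTTTCCC
Tfec-201 spliced after exon 6: aggctccggattcagGAACTAGAAATACAA
Tfec-204 read through: aggctccggattcagGTTGTTATGCGATGG
In every one of the 4 read-through sequences the intron opens with GT, and all 4 exon ends lie in coding sequence. The last exon base is at 92688976 on chromosome 16 for Runx1 and at 97941302 on chromosome 6 for Mitf. For Tfec, on chromosome 6, it is at 16844195 for exon 4 and at 16835202 for exon 6. Runx1-206 runs 1987 bases into an intron of 20163 bases, and Mitf-206 runs 877 bases into an intron of 51824 bases. Tfec-203 covers 2779 of 3650 intron bases and Tfec-204 510 of 871.

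Start regions are shown for both starts of Runx1 and the first and last start of Mitf, whose shares are compared below, and for Tfec, the member with the highest level. Each is 300 bases from RefSeq (build GRCm38.p6), 250 before and 50 after an annotated start, on the strand of the gene. Capitals mark matches to 7 short motifs searched on both strands, namely GGAAGT (ETS core), TTGCNNAA (C/EBP), TGTGGT (RUNX), CACGTG (E-box), CATGTG (M-box core), TGCTGA (a Maf recognition element in part) and kappa B (GGGA and CC with any 4 bases between them). No capitals overlapped between motifs.
Tfec, chr6:16898392-16898691, minus strand: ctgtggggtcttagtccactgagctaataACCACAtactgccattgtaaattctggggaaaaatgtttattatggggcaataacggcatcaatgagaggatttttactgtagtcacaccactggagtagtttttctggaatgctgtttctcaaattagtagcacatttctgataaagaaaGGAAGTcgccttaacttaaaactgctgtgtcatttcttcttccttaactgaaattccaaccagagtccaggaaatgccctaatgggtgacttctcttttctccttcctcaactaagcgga
Runx1 distal start, chr16:92826025-92826324, minus strand: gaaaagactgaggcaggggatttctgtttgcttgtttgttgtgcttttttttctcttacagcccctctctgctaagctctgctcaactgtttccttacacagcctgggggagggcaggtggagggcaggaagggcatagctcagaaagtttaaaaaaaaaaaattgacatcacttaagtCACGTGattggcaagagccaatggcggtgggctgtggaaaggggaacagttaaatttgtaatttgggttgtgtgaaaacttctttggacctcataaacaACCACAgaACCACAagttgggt
Runx1 proximal start, chr16:92697280-92697579, minus strand: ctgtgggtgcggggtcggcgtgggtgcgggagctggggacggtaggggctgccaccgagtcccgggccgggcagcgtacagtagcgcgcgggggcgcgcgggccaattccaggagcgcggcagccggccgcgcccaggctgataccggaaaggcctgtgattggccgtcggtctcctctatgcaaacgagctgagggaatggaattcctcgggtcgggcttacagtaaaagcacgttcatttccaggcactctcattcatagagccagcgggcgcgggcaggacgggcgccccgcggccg
Mitf first start, chr6:97806808-97807107, plus strand: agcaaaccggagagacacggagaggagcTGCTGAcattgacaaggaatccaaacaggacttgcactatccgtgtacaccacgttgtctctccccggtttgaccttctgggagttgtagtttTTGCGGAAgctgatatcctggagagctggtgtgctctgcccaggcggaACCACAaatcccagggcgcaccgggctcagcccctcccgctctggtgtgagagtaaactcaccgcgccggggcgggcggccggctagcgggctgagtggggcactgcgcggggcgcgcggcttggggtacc
Mitf last start, chr6:97991533-97991832, plus strand: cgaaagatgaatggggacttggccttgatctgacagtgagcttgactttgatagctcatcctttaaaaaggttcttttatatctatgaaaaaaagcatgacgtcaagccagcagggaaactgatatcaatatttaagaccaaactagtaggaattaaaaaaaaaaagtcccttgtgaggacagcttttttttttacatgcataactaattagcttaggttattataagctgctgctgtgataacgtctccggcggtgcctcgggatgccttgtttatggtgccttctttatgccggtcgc
The RefSeq table held 11 start regions for 6 of the 9 genes, and Spi1, Cebpd and Maf had no entry. In the Tfec region the ETS core began at base -70 and a RUNX match at -221. The distal Runx1 region had an E-box at -71 and RUNX matches at 28 and 36 after the start, while the proximal region had no match to any of the 7 motifs. The first Mitf start region had a Maf match at -222, a C/EBP match at -129 and a RUNX match at -81, and the last Mitf region had none. Of the regions not shown, Cebpb had a kappa B match at -23, the second Mitf region had C/EBP, Maf and kappa B matches, 2 of the 3 Tfeb regions had 1 match each, to the ETS core and to C/EBP, and Cebpa and the last Tfeb region had none.
Such short motifs are common. Among 32851 mouse start regions of the same length, 23.8% held the ETS core, 16.8% RUNX, 10.8% C/EBP, 7.15% the E-box, 14.2% the M-box core, 19.5% the Maf motif and 20.7% kappa B. A match is a stretch of letters and not a binding site, and the absence of one says only that these letters are not in the window.

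As a group the 9 genes lay above most protein-coding genes. Both libraries had at least 1 TPM for 8 of the 9, against 38.7% of 22015 protein-coding genes outside the mitochondrial genome, and the exception was Cebpd. The median level of the 9, as log2(TPM + 1) averaged over the libraries, was 4.56, compared with 2.87 over the 9158 protein-coding genes with a mean of at least 1 TPM and 0.36 over all protein-coding genes. The levels spread widely, with Tfec on top at 379 ± 218 TPM and Cebpd at the bottom at 0.84 ± 0.23 TPM (SD, n = 2). In order of mean TPM the genes were Tfec, Runx1, Maf, Spi1, Mitf, Cebpb, Cebpa, Tfeb and Cebpd. In 7 of the 8 neighbouring pairs the lower library of the higher gene lay above the higher library of the lower gene. Spi1 and Mitf were the exception, since Mitf was above Spi1 in library 1 and below it in library 2. By CPM, which does not divide by length, 6 of the 8 neighbouring pairs were separated in this way, and in the other quantification 1 of 8, Cebpa and Cebpd. The median log2 ratio of library 2 over library 1 there was -2.26, and each range over the libraries contains that overall difference. The order in the other quantification was the same in both libraries, namely Tfec, Runx1, Spi1, Maf, Mitf, Cebpb, Tfeb, Cebpa and Cebpd, so that Spi1 stood above Maf and Tfeb above Cebpa.

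**Figure D1:**
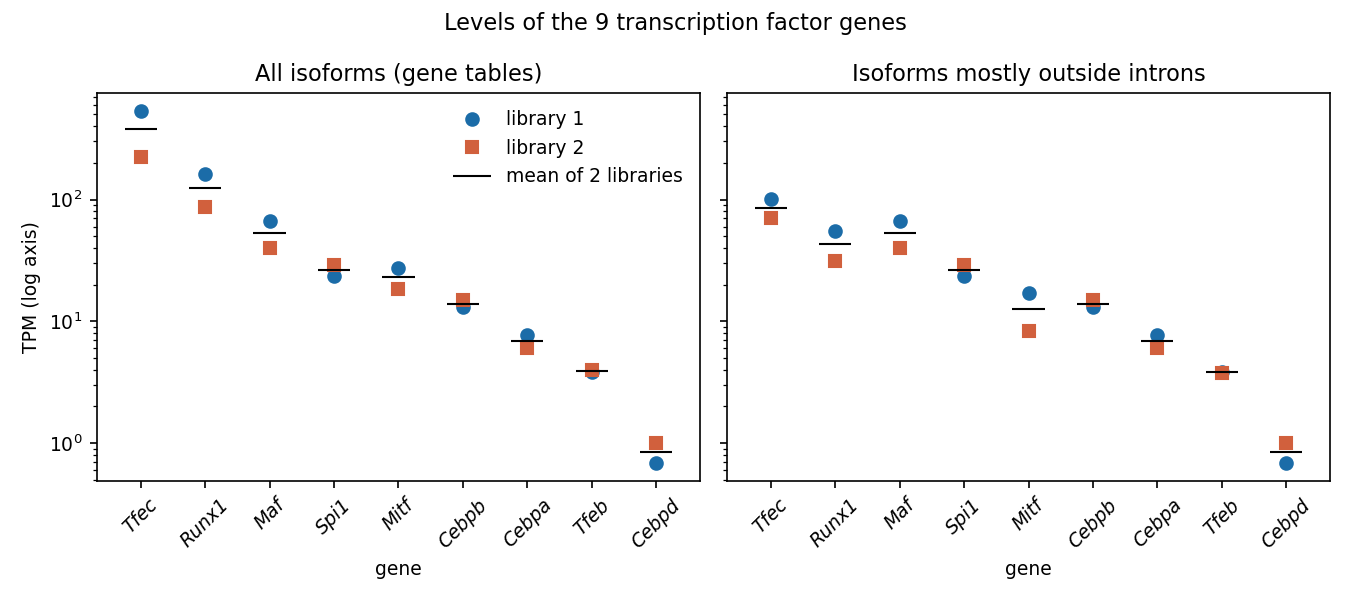
TPM (log axis) of each of the 9 genes in library 1 (circles) and library 2 (squares), with a line at the mean of the 2 libraries, from the gene tables (left) and from the sum of isoforms with under 50% of their bases in introns (right). Tfec is highest in both panels, Runx1 stands above Maf on the left and below it on the right, and Cebpd is lowest in both.

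Spi1 (ENSMUSG00000002111.8, chromosome 2, 91082390 to 91115756, plus strand) had 23.7 TPM in library 1 and 28.9 TPM in library 2, from 388 and 1274 expected counts. Its mean of 26.3 ± 3.68 TPM (SD, n = 2) placed it at percentile 90.5 of protein-coding genes in library 1 and 94.9 in library 2. Spi1-201, the complete 5-exon messenger of 2034 nt, held 75.1% of the gene's TPM in library 1 and 63.1% in library 2, or 93.3% and 89.6% of its expected counts. A second start, 13706 bases upstream of that messenger, gave Spi1-202, a noncoding processed transcript with 26 expected counts in library 1 and 111 in library 2. Because Spi1-202 is short, those counts made up 24.9% and 26.6% of the gene's TPM. In the other quantification Spi1-203, a 3-exon coding model with an incomplete end, led by TPM with 43.7% and 50.5%, while Spi1-201 still led by counts with 69.0% and 64.3%. No isoform of Spi1 was intron-rich, and no other gene overlapped it.

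The C/EBP genes are compact, and by TPM their levels were in the order Cebpb, Cebpa, Cebpd in both libraries. By CPM, Cebpa was above Cebpb in library 1, at 18.6 beside 18.2 CPM. In library 2 it was below, at 22.8 beside 32.5 CPM. Cebpb (ENSMUSG00000056501.3, chromosome 2, 167688915 to 167690418, plus strand), whose product C/EBPβ acts in macrophage activation and acute inflammation, had 13.0 TPM in library 1 and 14.9 TPM in library 2, from 188 and 667 expected counts. It is annotated as 1 exon and 1 isoform, so all of its counts were in Cebpb-201. The opposite-strand gene Tmem189 overlaps 908 of the 1504 bases of Cebpb and had 716 and 1592 expected counts. As the strand setting is not given in the sources used here, reads of Cebpb and Tmem189 in that stretch cannot be separated with certainty.

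Cebpa (ENSMUSG00000034957.10, chromosome 7, 35119293 to 35121928, plus strand), needed in progenitors of granulocytes and monocytes, had 7.76 TPM in library 1 and 6.02 TPM in library 2, from 192 and 467 expected counts. Cebpa-201, the form with 1 exon, held 61.2% of expected counts in library 1 and 72.0% in library 2, and Cebpa-202, with 2 exons, held the rest. The deposited posterior SD of the count was 21.3 and 34.0 for each isoform, beside 74.6 and 131 counts for Cebpa-202, so the division between the isoforms was uncertain within each library. The antisense gene Gm45091, which overlaps Cebpa by 313 bases, had 2 counts in library 1 and 0 in library 2.

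Cebpd (ENSMUSG00000071637.5, chromosome 16, 15887286 to 15891031, plus strand), whose product C/EBPδ is known in macrophages as an amplifier of responses to lipopolysaccharide, was the lowest of the 9. It had 0.68 TPM in library 1 and 1.00 TPM in library 2, from 26.9 and 121 expected counts, and percentiles of 54.3 and 60.6. Of its 2 isoforms, the noncoding Cebpd-202 had 0 counts in both libraries, and the whole signal was in the single-exon Cebpd-201 of 3746 nt. Spidr, a coding gene on the opposite strand, overlaps 1808 bases of Cebpd and had 194 and 317 expected counts, more than Cebpd in both libraries.

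Maf (ENSMUSG00000055435.6, chromosome 8, 115682942 to 115707794, minus strand) encodes c-MAF, which in macrophages drives Il10 and restrains self-renewal. Its level was 67.2 TPM in library 1 and 39.7 TPM in library 2, from 4369 and 7769 expected counts. Maf-202, a single-exon form of 6360 nt, held 88.7% of the TPM in library 1 and 87.2% in library 2. The 3-exon Maf-201 held 11.3% and 12.8%. The division was close to the same in the other quantification, with 89.6% and 87.9% for Maf-202. Gm15655, an antisense gene that overlaps 2156 bases, had 97.1 and 67.3 expected counts, far fewer than Maf.

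Runx1 (ENSMUSG00000022952.17, chromosome 16, 92601466 to 92826149, minus strand) encodes the runt-domain factor that is required for definitive blood formation and that binds DNA with its partner CBFβ. It was the second highest of the 9, with 163 TPM in library 1 and 86.1 TPM in library 2, from 4601 and 7681 expected counts. Most of this signal was in isoforms that lie largely in introns of the complete coding forms. The retained-intron form Runx1-206, which starts at the proximal promoter, held 33.8% of expected counts in library 1 and 34.3% in library 2. Runx1-207, a noncoding processed transcript that begins at the distal start with 89.9% of its 2538 nt in introns, held 32.9% and 28.4%. The complete messengers Runx1-201, Runx1-202 and Runx1-203 held less. Runx1-201, the 8-exon form of the distal start, had 13.8% of counts in library 1 and 14.8% in library 2. Runx1-202 had 10.5% and 10.6%, and Runx1-203 had 7.04% and 10.01%.

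The 2 Runx1 start regions printed above lie far apart, with the proximal start 128821 bases downstream of the distal one. Isoforms of the distal start held 47.3% of the gene's counts in library 1 and 43.7% in library 2. Those of the proximal start held 44.3% and 44.9%, and a further pair of models held 8.38% and 11.4%. These are Runx1-203, which begins at 130024 bases, and Runx1-205, which begins at 130654 bases and whose annotated start is incomplete. By TPM the distal share was 53.8% and 47.5%. Runx1-207 made up most of the distal counts, so these shares say little about which start made the complete messengers. Among those, Runx1-201 had 635 and 1137 expected counts, beside 484 and 811 for Runx1-202, with posterior SDs of 13.8 and 25.6 for Runx1-201 and 36.1 and 55.9 for Runx1-202. Runx1-203 had 324 and 769 counts, so that Runx1-202 and Runx1-203 together held more counts than Runx1-201 in both libraries. In the other quantification Runx1-201 had 848 and 1111 counts, beside 810 and 1220 for Runx1-202, so the order of these differed between the libraries. The antisense gene Gm26626, which overlaps Runx1 by 7292 bases, had 48 and 59 counts.

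The 3 MiT family members among the 9 lay far apart in level. Tfec (ENSMUSG00000029553.10, chromosome 6, 16833373 to 16898441, minus strand), in mice expressed chiefly in macrophages and related cells, had 533 TPM in library 1 and 225 TPM in library 2, from 8684 and 13049 expected counts. It stood at percentile 99.8 of protein-coding genes in library 1 and 99.6 in library 2, and no other gene overlapped it. The largest part of its counts, 66.7% in library 1 and 62.3% in library 2, lay in the retained-intron form Tfec-203 of 3384 nt. The complete 7-exon messenger Tfec-201 held 20.4% and 27.6%, or 1769 and 3606 counts.

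The isoform shares of Tfec depended on the scale. Tfec-204, a single-exon coding model of 572 nt whose start is incomplete and 510 of whose bases are intronic, held 10.3% of counts in library 1 and 5.90% in library 2. By TPM, which divides by effective length, the same isoform held 42.4% and 26.2%, and it led in library 1. Tfec-203 led by TPM in library 2, with 33.3%. Tfec-204 had 892 counts in library 1 and 770 in library 2, although library 2 had the greater depth. Without the intron-rich isoforms Tfec was at 100.5 TPM in library 1 and 70.3 TPM in library 2, and it was still the highest of the 9.

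Mitf (ENSMUSG00000035158.15, chromosome 6, 97807052 to 98021349, plus strand), named for the pigment and eye phenotype of its mutants and active in osteoclasts and mast cells as well as melanocytes, had 27.6 TPM in library 1 and 18.6 TPM in library 2, from 907 and 1568 expected counts. Mitf-202, a complete 10-exon messenger, held 80.1% of the counts in library 1 and 68.3% in library 2. The retained-intron form Mitf-206 held 15.1% and 25.9% of counts. Because Mitf-206 is short, it held 38.6% of TPM in library 1 and 54.9% in library 2, where it led. The 95% Wilson intervals of its share of counts, 12.9% to 17.6% in library 1 and 23.7% to 28.1% in library 2, did not overlap, but they cover counting error only.

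The isoforms of Mitf begin at 4 places, the later 3 lying 122747, 133866 and 184740 bases downstream of the first. The first start, whose region is printed above, held 96.0% of expected counts in library 1 and 95.4% in library 2. The last start, known as the melanocyte start, held 2.66% and 1.10%, from 24.2 and 17.3 counts. In the other quantification the last start held 9.09% and 7.27% of counts and the first 79.1% and 75.6%. The complete isoforms of all 4 starts share most of their exons. Gm15531, a processed pseudogene on the opposite strand that overlaps 252 bases, had 14 and 67 counts.

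Tfeb (ENSMUSG00000023990.18, chromosome 17, 47737030 to 47792419, plus strand) encodes the main regulator of lysosome biogenesis and autophagy genes. It had 3.83 TPM in library 1 and 4.01 TPM in library 2, from 71 and 197 expected counts, the second lowest of the 9. These few counts were divided over 15 annotated isoforms, and Tfeb-212, a 7-exon coding model with an incomplete start, led with 46.6% of counts in library 1 and 42.7% in library 2. The posterior SD of its count was 8.80 beside 33.1 counts and 12.3 beside 84.0 counts. Next by counts were Tfeb-204 with 23.5% and 9.83%, Tfeb-203 with 18.7% and 14.7%, and Tfeb-202 with 11.3% and 25.4%, so the order of these 3 differed between the libraries. In the other quantification Tfeb-204 led by counts, with 27.5% and 21.6%. Isoforms of the first start held 53.4% of counts in library 1 and 50.0% in library 2.

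**Figure D2:**
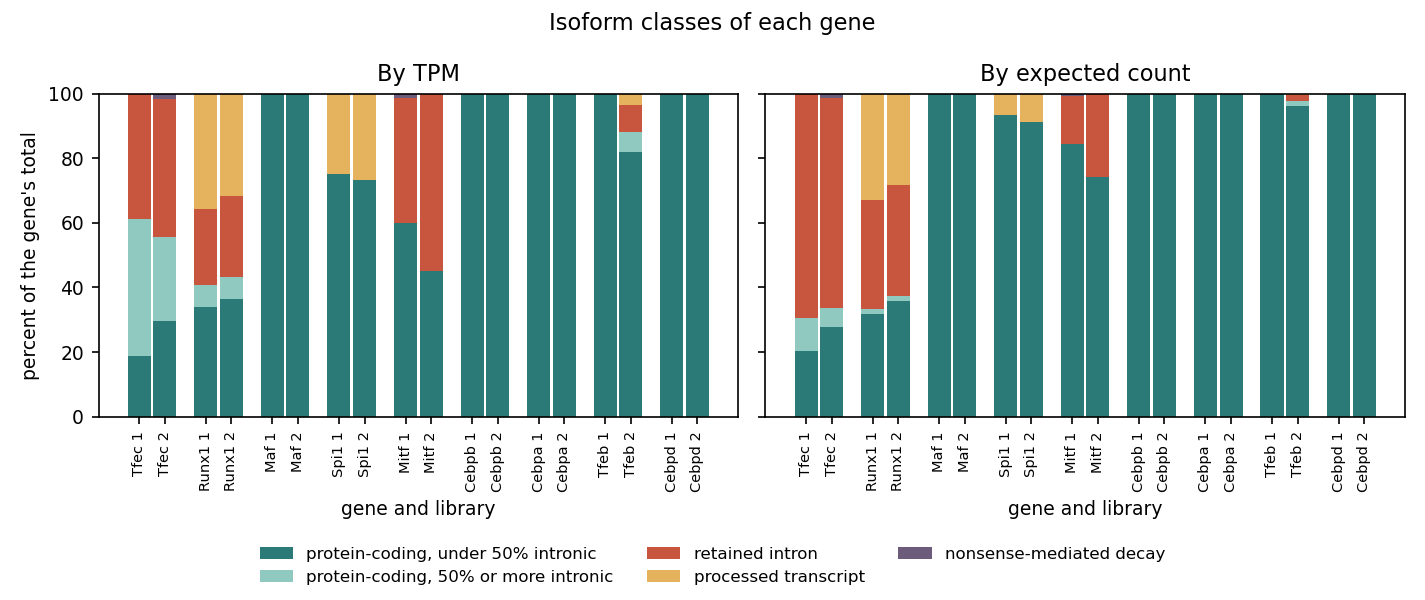
Share of each gene's TPM (left) and expected counts (right), in percent, in the classes of isoform that the annotation gives, with 1 bar per gene and library. Tfec and Runx1 have most of their counts in retained-intron, processed-transcript or intron-rich coding isoforms in both libraries, while Maf, Cebpb, Cebpa and Cebpd have theirs in coding isoforms. For Maf, Cebpb and Cebpa only coding isoforms are annotated, so the annotation fixed that share.

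Runx1 and Tfec had most of their counts in isoforms that lie largely in introns. An isoform was called intron-rich where at least 50% of its bases lay in gaps between the merged exons of all complete coding isoforms. Such a gap need not be an intron of each of them. Runx1-207 lies upstream of Runx1-202 and Runx1-203, so its intronic bases are in introns of Runx1-201. Intron-rich isoforms held 79.6% of Tfec counts in library 1 and 70.9% in library 2, and 68.1% and 64.1% of Runx1 counts. They held 15.1% and 25.9% of Mitf counts, 0% and 1.58% of Tfeb counts, and none in Spi1, Cebpa and Maf. The share of Tfeb in the other quantification was 3.75% and 16.3% of counts, and 25.7% and 54.0% of its TPM. Of the 7 genes with at least 2 isoforms and a mean of at least 1 TPM, 2 had 50% or more in both libraries, against 3.80% of 8542 such protein-coding genes. The median of those 8542 genes was 0.181% in library 1 and 0.855% in library 2, and their 90th percentile was 34.0% and 33.1%. Such shares depend on how many intron-rich isoforms are annotated. Runx1 and Tfec have 3 each, Tfeb 4 and Mitf 1, and the median over the 8542 genes is 1. Spi1, Cebpa and Maf have none annotated, so they could hold no such counts. Over all protein-coding genes, isoforms annotated as retained introns held 16.4% of expected counts in library 1 and 15.9% in library 2. The tables have rows for annotated isoforms only, so introns that no annotated isoform holds have no value in them.

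**Figure D3:**
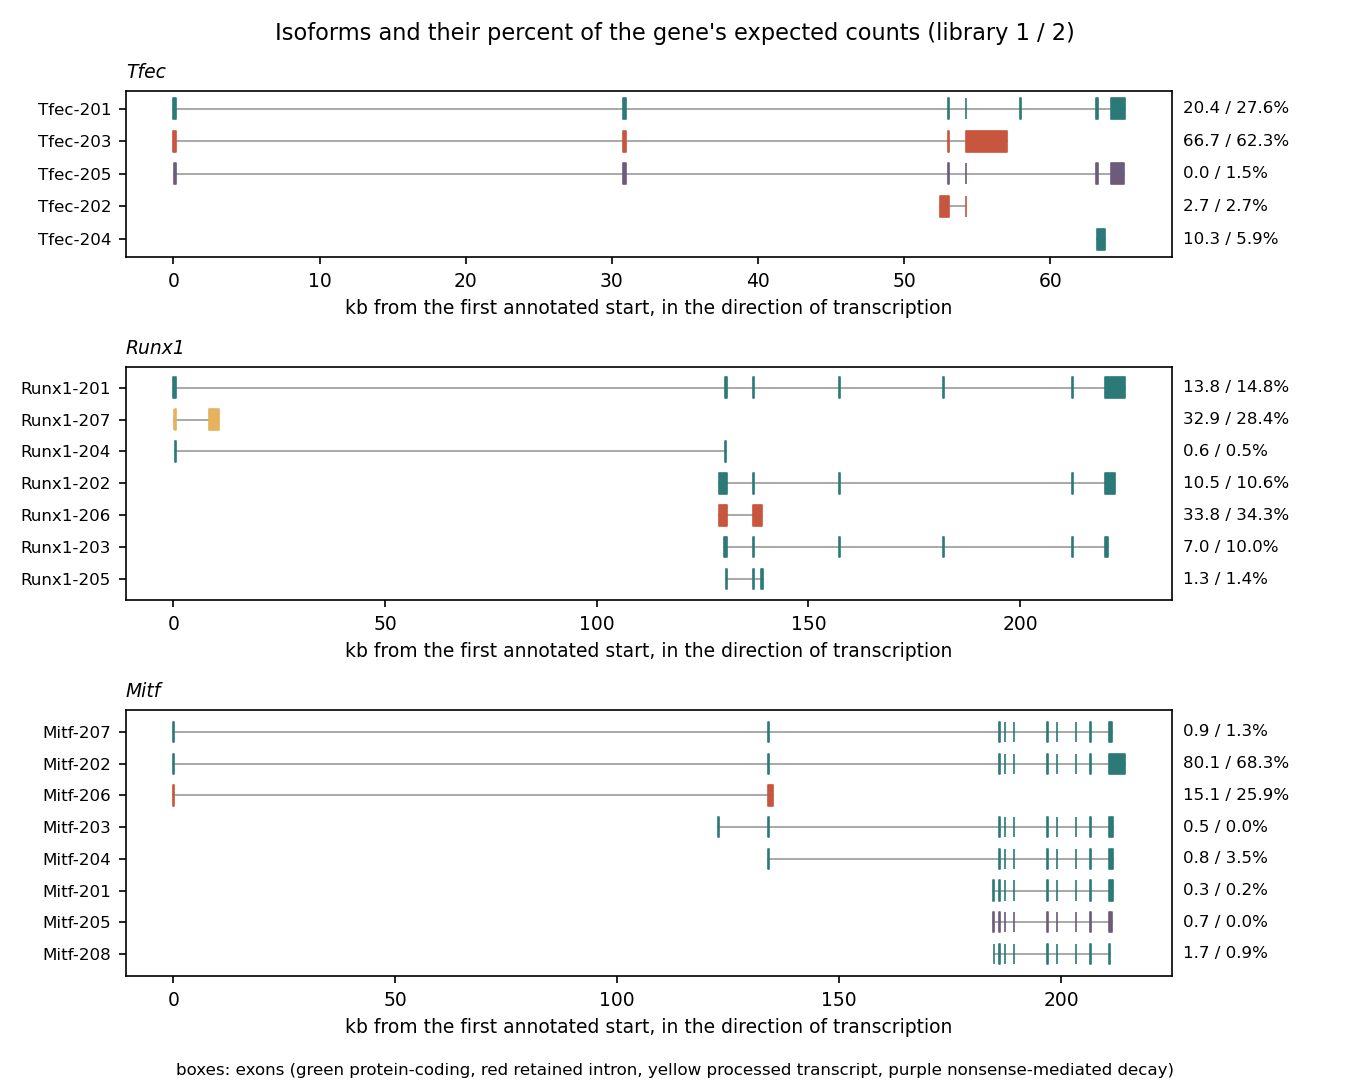
Exons (boxes) and introns (lines) of the annotated isoforms of Tfec, Runx1 and Mitf, in kb from the first annotated start in the direction of transcription, coloured by class, with each isoform's percent of the gene's expected counts in library 1 and library 2 at the right. The retained-intron form Tfec-203 holds 66.7% and 62.3%, Runx1-206 and Runx1-207 hold most of Runx1, and Mitf-202 holds 80.1% and 68.3%.

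When isoforms were ranked by TPM, a protein-coding isoform led in both libraries in 5 of the 8 genes with at least 2 isoforms, near the background of 75.0% of 8556 protein-coding genes with at least 2 isoforms and a mean of at least 1 TPM. The exceptions were Runx1, Mitf and Tfec. The same isoform led in both libraries in 6 of the 8, against 74.1% of those 8556 genes, and Mitf and Tfec were the exceptions. The 8 include Cebpd, whose mean of 0.84 TPM is below the limit of 1 TPM set for the 8556 genes. Since its noncoding isoform had 0 counts in both libraries, Cebpd entered both tallies as led by its coding isoform. When isoforms were ranked by expected counts instead, the same isoform led in both libraries in all 8. By the counts of the other quantification, Runx1 was an exception, led by Runx1-207 in library 1 and by Runx1-206 in library 2.

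Leaving out the intron-rich isoforms changed the order of the 9 genes at 2 places. Runx1 was then at 55.6 TPM in library 1 and 31.3 TPM in library 2, below Maf at 67.2 and 39.7 TPM. Mitf was at 16.9 TPM in library 1 and 8.38 TPM in library 2, above Cebpb in the first library and below it in the second. Levels of Spi1, Cebpa, Cebpb, Cebpd and Maf were the same to within rounding, and Tfeb was at 3.84 and 3.75 TPM. By CPM, which counts reads and not molecules, Runx1 and Maf were level, with 445 and 375 CPM for Runx1 and 422 and 379 CPM for Maf.

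The 2 libraries differed from each other by gene in a way that a common scale did not remove. After subtraction of the median log2 ratio, 8 of the 9 genes lay within 2-fold of the median gene, and 88.9% of 11532 genes with a mean of at least 1 TPM did. Cebpd, whose mean is below that limit, was outside at 1.25 (log2, library 2 over library 1). Spi1 followed at 0.98, Cebpb at 0.89, Tfeb at 0.76 and Cebpa at 0.33. Mitf was at 0.12, Maf at -0.07, Runx1 at -0.23 and Tfec at -0.55. The 5 genes from Cebpd to Cebpa were above 0 under all 5 ways of scaling tried, and Runx1 and Tfec were below 0 under all 5. Mitf and Maf changed sign with the scaling, Mitf to -0.09 with TMM and -0.12 with DESeq2 size factors and Maf to 0.06 in the other quantification. In that quantification Tfeb and Spi1 also lay outside 2-fold, at 1.45 and 1.10.

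**Figure D4:**
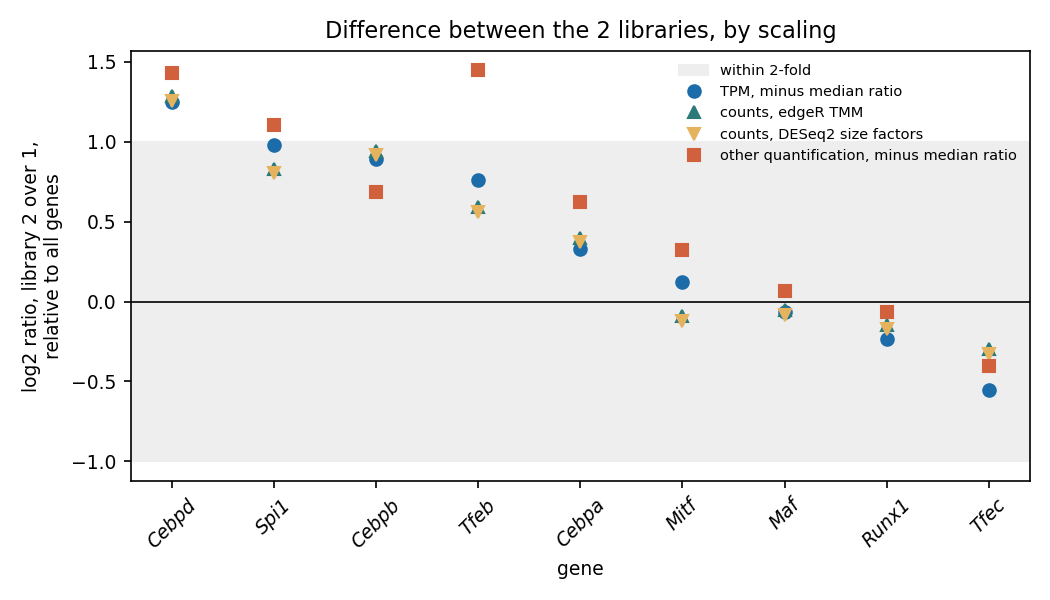
Log2 ratio of library 2 over library 1 for each of the 9 genes, relative to all genes, under 4 ways of scaling, with the band within 2-fold in grey. Cebpd lies above the band under all 4, Tfeb and Spi1 lie above it in the other quantification, and Mitf lies on both sides of 0.

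Gene length moved with these ratios. Over protein-coding genes with a mean of at least 1 TPM, the median relative log2 ratio was -0.09 in 5265 genes that span over 20 kb and 0.21 in 3893 shorter genes. It was 0.34 in 147 genes annotated with 1 exon and 0.03 in 9005 with several. Of the 9, Cebpa, Cebpb and Cebpd span 20 kb or less and the other 6 more, among which Spi1, Tfeb and, by TPM, Mitf were above 0. Without intron-rich isoforms the relative ratio of Tfec was 0.18 in place of -0.55 and that of Mitf -0.32 in place of 0.12, while Runx1 was at -0.14. The RNA input also differed between the libraries, and the part of span, exon number or input in the ratios was not tested.

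Relatives of the 9 genes within the same families were lower in the median. Of 14 relatives, 9 reached 1 TPM in both libraries, and their median was 6.38 TPM in library 1 and 4.38 TPM in library 2, against 23.7 and 18.6 TPM for the 9 genes. The highest were the small Maf genes Maff, at 42.3 TPM in library 1 and 31.96 TPM in library 2, and Mafg, at 35.4 and 26.6 TPM. Tfe3, the fourth MiT gene, was at 25.04 and 18.9 TPM, near Mitf. Cebpe, a factor of late granulocyte development, had 0 and 5 counts, and Mafa and Nrl, factors of pancreatic beta cells and of rod photoreceptors, had 0 in both. Of the other RUNX genes, Runx2 was at 2.34 and 1.34 TPM and Runx3 at 0.10 and 0.30 TPM, and the strand-opposed gene Supt3 overlaps Runx2. Thus Runx1 had the highest TPM of the RUNX genes and Tfec of the MiT genes in each library.

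All 10 genes listed as partners and cofactors reached 1 TPM in both libraries. The top 3 encode the folliculin complex, which holds TFEB and TFE3 in the cytoplasm through Rag GTPases. Fnip2 was at 152 TPM in library 1 and 90.8 TPM in library 2, Fnip1 at 60.4 and 27.1 TPM, and Flcn at 51.5 and 33.1 TPM, all far above Tfeb. Hdac1, a histone deacetylase, followed at 45.5 and 24.8 TPM. The 3 lowest were the corepressor gene Tle4 at 11.9 and 5.58 TPM, the Rag GTPase gene Rragd at 8.50 and 4.19 TPM and Irf4, an interferon regulatory factor that binds with PU.1, at 3.72 and 3.10 TPM. The sense-intronic gene Gm3513 and the opposite-strand gene Gm17359 overlap Fnip2, and their reads cannot be separated from it with certainty.

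Genes known as targets of PU.1, C/EBP factors and RUNX1 in myeloid cells reached 1 TPM in both libraries in 12 of 14 cases. The lysozyme gene Lyz2 led at 1461 TPM in library 1 and 1507 TPM in library 2, followed by the lipopolysaccharide co-receptor gene Cd14 at 575 and 391 TPM. Cybb, of the phagocyte oxidase, was at 478 and 283 TPM, and Csf1r, the receptor for the macrophage growth factor, at 440 and 267 TPM. The opposite-strand gene Hmgxb3 overlaps Csf1r. The lowest were the tyrosine kinase gene Btk at 5.06 and 3.61 TPM and the granule genes Mpo and Elane, with 1 and 9 counts for Mpo and 0 and 3 for Elane. Both granule genes are typical of granulocyte progenitors.

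Targets of the MiT family reached higher levels than the factors themselves. Of 12, 11 reached 1 TPM in both libraries, and Ctsk did so in library 2. Gpnmb, a membrane glycoprotein of lysosome-rich cells, was at 2886 TPM in library 1 and 2078 TPM in library 2. The protease gene Ctsd was at 1320 and 1177 TPM, the autophagy receptor gene Sqstm1 at 619 and 399 TPM and the lysosomal membrane gene Lamp1 at 276 and 248 TPM. Gm49369 overlaps Ctsd on the same strand, and Mrnip and Grtp1 overlap Sqstm1 and Lamp1 on the opposite one. At the bottom of the list were 3 genes typical of osteoclasts, Atp6v0d2 at 16.3 and 7.49 TPM, Acp5 at 5.11 and 9.58 TPM and Ctsk at 0.55 and 1.11 TPM.

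Factors that direct other blood lineages were low. In the gene tables none of 12 reached 1 TPM in either library, and together they summed to 0.41 TPM in library 1 and 0.74 TPM in library 2. The highest were Gata2 at 0.24 and 0.35 TPM and Gfi1 at 0.10 and 0.18 TPM, followed by Tcf7 at 0.04 and 0.06 TPM and Klf1 with 0 and 3 counts. Pax5, Gfi1b, Bcl11b, Tbx21 and Eomes had 0 expected counts in both libraries. By the gene tables Cebpd, the lowest of the 9, was above each of these 12 factors in both libraries. The 12 summed in the other quantification to 2.90 TPM in library 1 and 0.483 TPM in library 2. There Ebf1 was at 1.16 TPM, Eomes at 1.02 TPM and Gata3 at 0.386 TPM in library 1, all above Cebpd at 0.363 TPM, whereas in library 2 none of the 12 was above Cebpd.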

How the data were processed

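RNA from the nucleoplasm was measured by sequencing of ribosomal RNA-depleted libraries, with 2 replicates of 1 group. Per the file headers, the deposited gene and transcript tables have RSEM's columns, with expected counts, TPM and a posterior SD of the count. The deposited table here called the other quantification has kallisto's columns, with estimated counts and TPM per transcript. In their readme files the authors state the genome mm10 with annotation M21, alignments to transcripts as the basis of the first tables and reads as that of the other. The sources used here give no programs, versions, trimming, filters or strand setting, so overlapping genes on opposite strands cannot be separated with certainty. TPM divides counts by effective length, so short isoforms gain weight. The authors' posterior SD is an estimate of uncertainty within a library.

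From these values CPM over gene rows, isoform shares, percentiles among protein-coding genes and replicate ratios were computed in Python 3.11.15 with pandas 2.3.3. The 26345 rows that name no gene held 0.504% of expected counts in library 1 and 0.0968% in library 2 and were left out. Levels are on the log2(TPM + 1) scale, averaged over the libraries, with a pseudocount of 1, which understates differences at low TPM. No filter on low values was applied to the 9 genes. Rescaled TPM, an alternative, divides by the protein-coding total. Scaling alternatives used edgeR 4.0.16 (TMM) and DESeq2 1.42.0 (size factors) on rounded expected counts. Isoform starts within 1000 bases were joined. The ratio calculation was run on simulated counts with planted changes and counting error only, so that run says nothing on the spread between real libraries. A chi-square statistic per degree of freedom of 108 over 12759 genes shows that the libraries are not copies of each other. Shares carry 95% Wilson intervals where given, and intervals and count limits cover counting error only. Ddit3 has 2 gene identifiers, which were summed.

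All 9 genes are described in both libraries. Isoforms with at least 5% of a gene's TPM in either library and quantification, at most 6 per gene, could be named, and the 4 highest and 3 lowest genes of each further list. Of the listed genes, 2 are not reported here by name. Runx2, Runx3 and the markers and other-lineage factors named beside counts were picked after their values were seen. Members and lists were chosen with earlier results of these data known.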

Additional observations from a re-analysis of the deposited data

How the results depend on the processing

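The median level of the 9 genes was 4.56 on the log2(TPM + 1) scale. It was 3.86 in the other quantification, 5.62 with CPM, 6.76 with TPM rescaled to the protein-coding total and 3.90 without intron-rich isoforms, an alternative chosen after seeing the data, and it lay between 4.29 and 4.62 when either replicate was left out. Their median percentile among protein-coding genes was 91.9, with 80.5 among those with a mean of at least 1 TPM, 88.6 by CPM and 90.5 to 92.1 when either replicate was left out. Rescaled TPM is higher by definition, since protein-coding genes held 26.2% of TPM in library 1 and 17.0% in library 2. CPM is a different unit. The cause of the remaining shifts was not tested. The counts of genes at 1 TPM or more (8 of 9), within 2-fold (8 of 9), led by a coding isoform (5 of 8) and led by the same isoform (6 of 8) stayed within 1.5 times their value under every alternative tried, from 8 to 9, 6 to 8, 5 to 7 and 5 to 8. No paired analysis was possible because there is 1 group. Depth limits Cebpd and Tfeb most, with 26.9 and 71 expected counts in library 1.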
